A study of Mus musculus with 4 samples.

Results

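NRF2, encoded by Nfe2l2, is the transcription factor that switches on genes against oxidants and reactive chemicals. These genes were examined in mouse bone marrow in the long-term haematopoietic stem cell (HSC), a cell type whose members renew themselves and sustain blood formation for life, months after a low dose of γ-rays. The set is a list of 32 named genes: NRF2 and its inhibitor, and enzymes of glutathione, thioredoxin, peroxide, haem and iron handling. All 32 were found among 25206 probe sets, of which 23740 carried a gene symbol. The identifier of each row is an Entrez gene number. G6pdx, Prdx5 and Prdx6 had no symbol in the array's annotation and were named through that number.

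The study exposed Lin- ckit+ Sca+ marrow cells to 0.02, 0.1 or 0.5 Gy, or to 0 Gy as the control, and transplanted them into mice that had been lethally irradiated. Recipients of the 0 Gy cells were lethally irradiated too, so every group comes from irradiated hosts. At 6 months after transplantation the HSCs were sorted by the Lin- ckit+ Sca+ gate with Flk2 and CD48 absent and CD150 present, a gate with no named marker of donor origin. The labels give neither strain, age and sex of the mice nor whether animals were pooled. Each dose was measured on 1 Affymetrix whole-transcript array, so no dose has a replicate and no spread within a dose is known. The values are deposited log2 intensities. Differences between 2 arrays are therefore untested, and their precision is limited by the small number of arrays. In sorted cells, a lower value from fewer cells of a type cannot be told apart from one due to less RNA per cell.

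In resting cells KEAP1 holds NRF2 in the cytoplasm and has it degraded. Oxidants modify KEAP1, and NRF2 then enters the nucleus, pairs with small MAF proteins and binds the antioxidant response element in the promoters of its targets. Long-lived blood stem cells are sensitive to reactive oxygen species, which push them out of quiescence, and ionising radiation produces such species directly.

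The 4 arrays had near-equal medians over all probe sets, from 4.01 to 4.07. The gate markers Kit, Ly6a and Slamf1 had log2 values of 10.12 to 10.57, 9.68 to 10.85 and 7.16 to 8.65. Of these 3, 1 was 1.5-fold or more higher than 0 Gy at 0.02 Gy, 1 lower at 0.1 Gy and 1 lower at 0.5 Gy. Their summed linear intensity was 2841, 3766, 2317 and 2174 in order of dose from 0 Gy. Cd48, which the gate excludes, had 3.08 to 4.13. Flt3, which encodes the excluded Flk2, had 4.46, 4.76, 5.44 and 4.76 in order of dose, above the median level and 1.97-fold higher at 0.1 Gy than at 0 Gy. All 10 further genes typical of long-term HSCs lay at or above the median of gene means, 4.07, but 3 were 1.5-fold or more higher at 0.02 Gy and 3 lower at 0.1 Gy. Genes used as lineage markers differed between the arrays. Of 12 measured markers of neutrophils and their progenitors, those above 0 Gy by 1.5-fold or more numbered 3, 7 and 6 at 0.02, 0.1 and 0.5 Gy, and those below it 1, 0 and 0. Their summed linear intensity was 356, 729, 1247 and 658 in order of dose from 0 Gy. The sum over 10 B and plasma cell genes was 3443, 5087, 3447 and 825, over 8 megakaryocyte genes 3480, 3103, 2346 and 2869, and over 9 mast cell, basophil and eosinophil genes 180, 467, 133 and 89.9. Of the megakaryocyte genes 1, 0 and 0 were 1.5-fold or more higher at 0.02, 0.1 and 0.5 Gy, and 1, 4 and 3 lower. Of the B and plasma cell genes 3, 1 and 0 were higher and 0, 1 and 3 lower. Of all named genes 4.58%, 4.01% and 4.36% were higher and 4.29%, 4.97% and 5.4% lower. Of those at or above the median level 6.39%, 5.5% and 5.92% were higher and 6.22%, 7.5% and 8.27% lower. Many deposited values were exactly equal between arrays. At least 1 tie among the 4 arrays occurred in 8 of the 32 genes, against 57.4% of all named genes and 46.1% of those at or above the median level.

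Promoters are shown for Srxn1 and Mgst1, which were 1.5-fold or more lower on all 3 irradiated arrays. Gclm, the glutathione synthesis gene with the widest range, and Prdx1, lowest at 0.02 Gy, were added after their values were seen. As deposited, neither of these reached 1.5-fold from 0 Gy at any dose. Each promoter is 300 bases, 250 before to 50 after the start site, from the RefSeq annotation of GRCm38.p6. Capitals mark the core of the antioxidant response element, written TGACNNNGC or TGAGNNNGC, on either strand. All 4 lie on the plus strand, Srxn1 at chr2:152105274-152105573, Mgst1 at chr6:138140277-138140576, Gclm at chr3:122245307-122245606 and Prdx1 at chr4:116685349-116685648.
Srxn1: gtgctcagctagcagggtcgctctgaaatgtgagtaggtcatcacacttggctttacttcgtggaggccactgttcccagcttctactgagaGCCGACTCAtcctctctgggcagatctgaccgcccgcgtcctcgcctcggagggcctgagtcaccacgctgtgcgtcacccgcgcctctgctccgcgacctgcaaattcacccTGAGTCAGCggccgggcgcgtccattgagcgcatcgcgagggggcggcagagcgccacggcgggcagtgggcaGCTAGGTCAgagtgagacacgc
Mgst1: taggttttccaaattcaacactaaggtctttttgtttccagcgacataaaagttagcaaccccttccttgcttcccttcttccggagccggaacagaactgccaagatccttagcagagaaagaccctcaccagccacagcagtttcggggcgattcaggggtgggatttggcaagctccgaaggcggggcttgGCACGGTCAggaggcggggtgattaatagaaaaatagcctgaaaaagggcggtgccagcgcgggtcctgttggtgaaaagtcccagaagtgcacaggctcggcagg
Gclm: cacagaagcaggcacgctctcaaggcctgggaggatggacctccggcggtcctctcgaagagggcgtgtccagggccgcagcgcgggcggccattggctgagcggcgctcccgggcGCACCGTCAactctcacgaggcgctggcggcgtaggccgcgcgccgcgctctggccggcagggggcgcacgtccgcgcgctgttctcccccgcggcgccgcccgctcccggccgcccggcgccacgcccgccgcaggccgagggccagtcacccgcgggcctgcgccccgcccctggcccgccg
Prdx1: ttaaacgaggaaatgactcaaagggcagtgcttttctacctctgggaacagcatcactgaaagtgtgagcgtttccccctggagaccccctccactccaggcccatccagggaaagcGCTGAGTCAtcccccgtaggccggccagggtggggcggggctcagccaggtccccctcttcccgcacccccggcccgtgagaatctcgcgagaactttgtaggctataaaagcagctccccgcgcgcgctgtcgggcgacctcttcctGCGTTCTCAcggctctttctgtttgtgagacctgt

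The stricter letters TGACNNNGC were found in 10 of the 27 genes with a promoter in the table, or 37%, against 14% of all 27025 genes there. The 10 are Nfe2l2, Gclm, Txnrd1, Srxn1, G6pdx, Pgd, Prdx1, Sod1, Gstm5 and Mgst1. With TGAGNNNGC allowed as well, the counts were 13 of 27 genes and 30.8% of all genes. In Srxn1 matches began at -158, -45 and 29 relative to the start site, and the one at -45 overlapped the AP-1 site TGACTCA read on the other strand. A second AP-1 site lay at -102. In Prdx1 the match at -133 also overlapped an AP-1 site, and another match began at 16. In Mgst1 and Gclm the single matches began at -56 and -134. Prdx1 also had an AP-1 site at -237. The AP-1 letters occurred in 3 of 27 genes and in 5.95% of all genes. Of the 10 genes with the stricter core, 2 were at least 1.5-fold from 0 Gy at some dose, as were 4 of the 17 with a window but no match and 2 of the 5 with no window. Of all named genes 18.3% were, and of those at or above the median level 26.2%, so groups this small show no difference by promoter. These matches are letters in a window and do not show binding.

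Most of the 32 genes differed little between the irradiated arrays and the 0 Gy array. The median log2 difference was -0.06 at 0.02 Gy, -0.04 at 0.1 Gy and 0.00 at 0.5 Gy, against 0.00 over all named genes at each dose. In 24 of the 32 no dose reached 1.5-fold. The 8 that did were Hmox1, Srxn1, Taldo1, Cat, Gpx3, Gsta4, Gstm1 and Mgst1, a share of 25%, where 18.3% of all named genes and 26.2% of those at or above the median level did. Of the 32 genes, 29 lay at or above that level, so the second share is the nearer background. The median range of a gene over the 4 arrays was 0.34 for the 32, 0.30 for all genes and 0.41 for genes at or above the median level.

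At 0.02 Gy, 0 of the 32 lay 1.5-fold or more above 0 Gy and 2 lay below, where 4.58% of all named genes were above and 4.29% below. Of genes at or above the median level 6.39% were above and 6.22% below. At 0.1 Gy 1 gene was higher and 4 were lower, against 4.01% and 4.97% of all genes and 5.5% and 7.5% of those at or above the median level. At 0.5 Gy 2 were higher and 4 lower, against 4.36% and 5.4% of all genes and 5.92% and 8.27% of those at or above the median level. The 4 lower genes at 0.1 Gy and the 4 at 0.5 Gy are each 12.5% of the set, and these counts depend on the scaling. After quantile normalization 3 were lower at 0.1 Gy, and 2 were lower and 2 higher at 0.5 Gy. Median centring and cyclic loess each gave 3 lower at 0.5 Gy. Set against the mean of the remaining 3 arrays, 1 gene was lower at 0.1 Gy and 2 at 0.5 Gy. Cat at 0.5 Gy lay just past 1.5-fold. At 0.02 Gy the count depends on the scaling, since Prdx1, Cat and Gpx3 lay just short of 1.5-fold. With each array centred on its median, 5 genes were lower there. The 3 comparisons share the 0 Gy array.

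**Figure D1:**
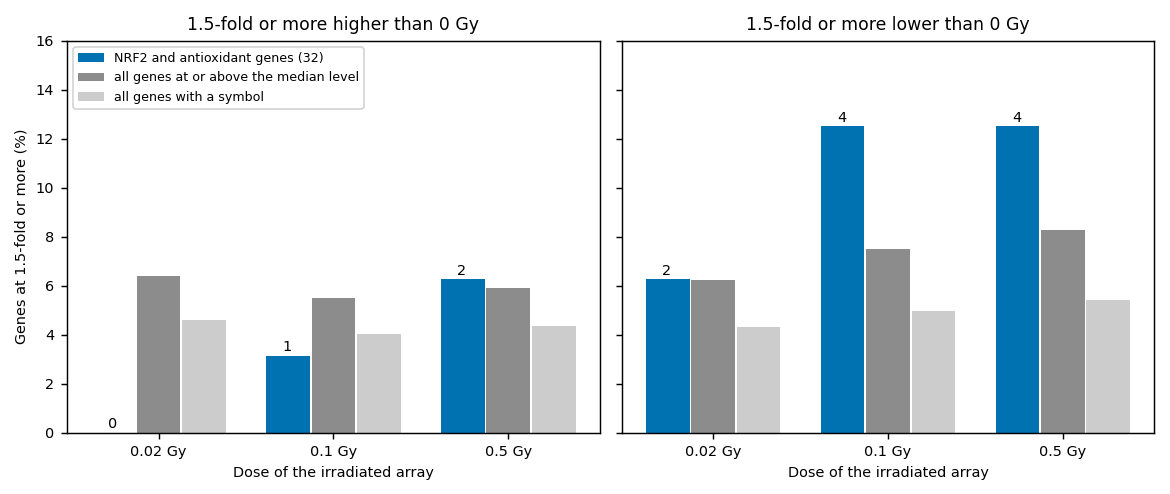
Share of genes at 1.5-fold or more above (left) or below (right) the 0 Gy array, in percent, for the 32 NRF2 and antioxidant genes, all genes at or above the median level, and all genes with a symbol, at each dose. Numbers on the bars count genes of the set: 0, 1 and 2 were higher and 2, 4 and 4 lower at 0.02, 0.1 and 0.5 Gy.

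All 3 irradiated values lay below the 0 Gy value in 10 of the 32 genes, 31.2%, against 20% of all named genes and 24.7% of those at or above the median level. These were Hmox1, Gsr, Txnrd1, Srxn1, Prdx1, Prdx6, Cat, Sod1, Gstm5 and Mgst1. All 3 lay above it in Nqo1 and Gpx4, 6.25% against 18.5% of all genes and 17.9% of those at or above the median level. After quantile normalization or cyclic loess 5 genes lay above. In order of dose from 0 Gy, each array alone had the highest value of the 4 in 10, 5, 4 and 12 of the 32 genes, and in 20%, 17.7%, 20.4% and 19.8% of all named genes. Each alone had the lowest in 2, 12, 11 and 6 genes, and in 18.5%, 22.6%, 18% and 21.4% of all named genes. A tie at the extreme takes a gene out of these counts. Ties occurred in 8 of the 32 genes, against 57.4% of all named genes and 46.1% of those at or above the median level. The shares over all genes are therefore not a like background, and those at or above the median level were not counted here.

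A linear model over all named genes (limma, Benjamini-Hochberg) set the 3 irradiated arrays together against the lone 0 Gy array. It assumes that the 0 Gy array varies like the others and counts differences between doses as error. None of the 32 genes passed an adjusted p of 0.05, against 0.88% of all genes. Of the 209 genes that passed, 194 had the same value on at least 2 of the 3 irradiated arrays. At an unadjusted p under 0.05 the count was 4 of 32, 12.5%, against 11.8% of all genes: Mgst1, Nqo1, Cat and Srxn1. A straight line in dose gave 0 of 32 genes at the adjusted threshold, 0% of all genes, and 6 of 32 at the unadjusted one, 18.8% against 13.6% of all genes. Those 6 were Gclc, Txnrd1, Taldo1, Prdx2, Prdx3 and Prdx6. The 0.5 Gy dose lies far from the others, so that single array largely sets each slope, here and below. The SE of a slope then reflects mostly the scatter among the 0, 0.02 and 0.1 Gy arrays. Prdx2 had the same value on those arrays.

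**Figure D2:**
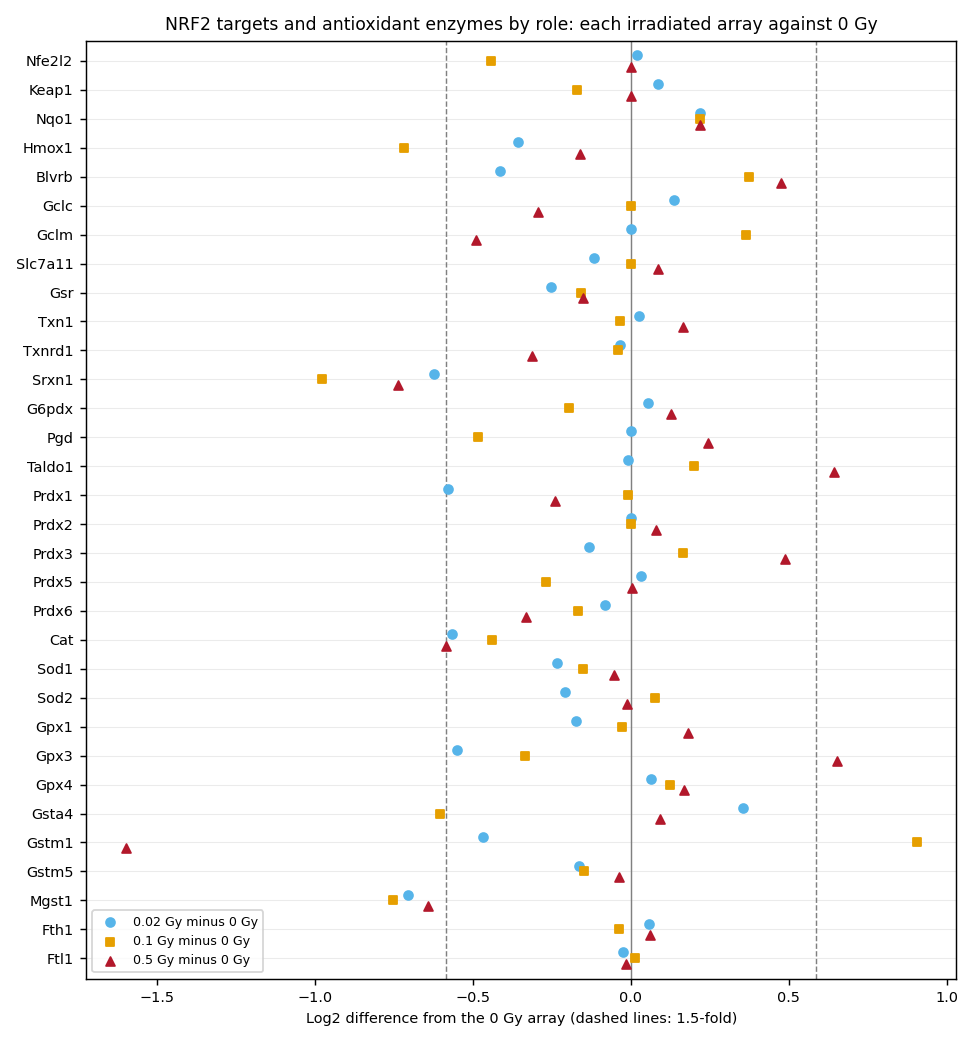
Log2 difference of each irradiated array from the 0 Gy array for the 32 genes, ordered by role; circles are 0.02 Gy, squares 0.1 Gy and triangles 0.5 Gy, and dashed lines mark 1.5-fold. Only Srxn1 and Mgst1 have all 3 points beyond the lower dashed line, and Gstm1 has the widest spread, from -1.60 to 0.91.

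Neither regulator was beyond 1.5-fold of 0 Gy at any dose. Nfe2l2, which encodes NRF2, had log2 intensities of 9.50, 9.52, 9.05 and 9.50 at the doses 0, 0.02, 0.1 and 0.5 Gy. Keap1, which encodes its inhibitor, had 5.65, 5.73, 5.48 and 5.65. Both were lowest at 0.1 Gy, Nfe2l2 by 0.44 and Keap1 by 0.17 below 0 Gy on the log2 scale, and both had the same value at 0.5 Gy as at 0 Gy.

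Enzymes that are classical readouts of NRF2 did not share a direction. Nqo1, a quinone reductase, had 5.61 on each of the 3 irradiated arrays and 5.39 at 0 Gy. Its fitted difference was 0.22 (SE 0.0119, limma adjusted p = 0.0627), and that small error rests on 3 identical values. Hmox1, the haem oxygenase that releases biliverdin and iron, had 5.26, 4.91, 4.54 and 5.10 at 0, 0.02, 0.1 and 0.5 Gy, lowest at 0.1 Gy, where it was 1.65-fold below 0 Gy. Of 11 measured markers of monocytes and macrophages, cells that can carry much Hmox1, 9 lay below the median level, and the median difference from 0 Gy was 0.00 at each dose. Their summed intensity of 181, 325, 123 and 177 in order of dose followed 1 gene, Cd68, named after its values were seen, which had log2 intensities of 6.10, 7.78, 4.02 and 6.18. The part of such cells was not tested.

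Blvrb, the biliverdin reductase abundant in erythroid cells, had 8.57, 8.15, 8.94 and 9.04. It was lower at 0.02 Gy and higher at 0.1 and 0.5 Gy than at 0 Gy, and 1.85-fold higher at 0.5 Gy than at 0.02 Gy. The other 11 measured erythroid marker genes had a median log2 difference of 0.05, 0.38 and 1.07 in order of dose. Of these, 2, 5 and 6 were 1.5-fold or more above 0 Gy while 1, 0 and 0 were below. Of all named genes 4.58%, 4.01% and 4.36% were above and 4.29%, 4.97% and 5.4% below. The summed linear intensity of the 11 erythroid genes was 2857, 2172, 3403 and 3940 in order of dose from 0 Gy. These sums had the same order of arrays as Blvrb. By the median difference, 0.05, the 0.02 Gy array was not below 0 Gy, whereas Blvrb was, and 6 of the 11 genes lay above 0 Gy there and 5 below. The part of erythroid cells in the Blvrb values was not tested.

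Glutathione is made in a first step by glutamate-cysteine ligase, from cysteine that the cell takes up partly as cystine. Gclc, the catalytic subunit of the ligase, had 6.29, 6.43, 6.29 and 6.00 at 0, 0.02, 0.1 and 0.5 Gy. Gclm, its modifier subunit, had 8.33, 8.33, 8.70 and 7.84, which is a 1.81-fold gap between 0.1 Gy, its highest array, and 0.5 Gy, its lowest. Both subunits were lowest at 0.5 Gy, within 1.5-fold of 0 Gy.

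Slc7a11, the cystine importer, had 2.64, 2.52, 2.64 and 2.73, all below the median level of all genes. Gsr, the reductase that regenerates glutathione, had 7.22, 6.97, 7.06 and 7.07. The 3 irradiated Gsr values lay below 0 Gy by more than they differed from each other, and the fitted difference was -0.19 (SE 0.0595, limma adjusted p = 0.483).

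In the thioredoxin system the lower values were in sulfiredoxin. Srxn1 encodes sulfiredoxin, which repairs peroxiredoxins whose active cysteine has been over-oxidised, and it is an NRF2 and AP-1 target. It had 6.47, 5.84, 5.49 and 5.73 at 0, 0.02, 0.1 and 0.5 Gy on the log2 scale. It was 1.54-fold, 1.97-fold and 1.67-fold lower at the 3 doses than at 0 Gy. The irradiated values spanned 0.35, less than the smallest of the 3 differences, 0.62. Across the 3 irradiated arrays the fitted difference was -0.78 (SE 0.187, limma adjusted p = 0.347).

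Txnrd1, the cytosolic thioredoxin reductase, had 7.75, 7.72, 7.71 and 7.44. Its value was lower at each higher dose, with nearly all of the difference at 0.5 Gy, and the slope of the straight line, -0.62 log2 units per Gy, had an adjusted p of 0.218 in limma. Txn1, thioredoxin itself, had 8.20, 8.22, 8.16 and 8.36 with a range of 0.20 over the 4 arrays. Of these 3 genes, Srxn1 alone was beyond 1.5-fold from 0 Gy at any dose.

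NADPH for both systems comes largely from the pentose phosphate pathway. G6pdx, its entry enzyme glucose-6-phosphate dehydrogenase, had 8.59, 8.64, 8.39 and 8.71 at 0, 0.02, 0.1 and 0.5 Gy. Pgd, phosphogluconate dehydrogenase, had 7.64, 7.64, 7.15 and 7.88. Both were lowest at 0.1 Gy and highest at 0.5 Gy, where Pgd was 1.66-fold above its value at 0.1 Gy.

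Taldo1, the transaldolase of the branch that recycles sugars, had 7.65, 7.64, 7.85 and 8.29. It was 1.56-fold higher at 0.5 Gy than at 0 Gy, with a fitted slope of 1.29 log2 units per Gy (SE 0.126, limma adjusted p = 0.218).

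Peroxiredoxins reduce hydrogen peroxide at a cysteine. As deposited, none of the 5 reached 1.5-fold from 0 Gy at any dose. Of all named genes 18.3% did, and of those at or above the median level 26.2%. Prdx1, cytosolic and an NRF2 target, had 9.64, 9.06, 9.63 and 9.39. Its lowest array was 0.02 Gy, 1.49-fold below 0 Gy, and its value at 0.1 Gy was within 0.01 of 0 Gy. With each array centred on its median, the Prdx1 difference at 0.02 Gy was -0.63, past 1.5-fold. Prdx2, the red cell peroxiredoxin, had 9.18 on the 0, 0.02 and 0.1 Gy arrays and 9.26 at 0.5 Gy.

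Prdx3, of mitochondria, had 8.98, 8.85, 9.15 and 9.47 and was 1.40-fold higher at 0.5 Gy than at 0 Gy. Prdx6, which uses glutathione to reduce lipid peroxides, had 9.15, 9.07, 8.99 and 8.82 and was lower at each higher dose. Their fitted slopes, 1.08 (SE 0.241) and -0.58 (SE 0.127) log2 units per Gy, had limma adjusted p-values of 0.286 and 0.282. Prdx5, found in several compartments, had 9.90, 9.93, 9.63 and 9.90, with 0.1 Gy alone lower.

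Catalase breaks down hydrogen peroxide in peroxisomes. Cat had 8.80, 8.23, 8.36 and 8.21 at 0, 0.02, 0.1 and 0.5 Gy. It was 1.48-fold, 1.36-fold and 1.5-fold lower at the 3 doses, and the irradiated arrays lay within 0.15 of each other. The fitted difference was -0.53 (SE 0.0822, limma adjusted p = 0.195).

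Superoxide dismutases turn superoxide into hydrogen peroxide. Sod1, the cytosolic copper-zinc enzyme, had 11.15, 10.92, 11.00 and 11.10 at 0, 0.02, 0.1 and 0.5 Gy. Sod2, the mitochondrial manganese enzyme, had 7.65, 7.44, 7.73 and 7.63. Both were lowest at 0.02 Gy, by 0.23 and 0.21 below 0 Gy.

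The listed glutathione peroxidases, Gpx1, Gpx3 and Gpx4, are selenoproteins that use glutathione to remove peroxides. Gpx1, the cytosolic form, had 11.79, 11.62, 11.76 and 11.97. Gpx4, which reduces lipid peroxides in membranes and protects from ferroptosis, had 5.19, 5.26, 5.32 and 5.36, the only one of the 32 genes with a higher value at each higher dose. Of all named genes 1.82% had one, and of those at or above the median level 1.98%. Its whole range was 0.17, and after quantile normalization 4 of the 32 genes were in this order. A lower value at each higher dose was found in Txnrd1 and Prdx6, 2 of 32, against 2.01% of all genes and 3.01% of those at or above the median level. Under quantile normalization and under median centring only Prdx6, 1 of 32, was in this falling order.

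Gpx3, the secreted form, had 4.09, 3.54, 3.75 and 4.74, with a mean below the median level of all genes. It was 1.57-fold higher at 0.5 Gy than at 0 Gy and 2.30-fold higher than at 0.02 Gy. At 0.02 and 0.1 Gy it lay below 0 Gy, so its irradiated arrays lay on both sides.

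Glutathione S-transferases couple glutathione to reactive compounds, and 3 of the 4 listed were beyond 1.5-fold at some dose, where 18.3% of all genes and 26.2% of those at or above the median level were. Mgst1, a microsomal transferase with peroxidase activity, had 6.53, 5.83, 5.78 and 5.89 at 0, 0.02, 0.1 and 0.5 Gy. It was 1.63-fold, 1.68-fold and 1.56-fold lower, and the irradiated arrays differed by at most 0.11 among themselves. The fitted difference was -0.70 (SE 0.0586, limma adjusted p = 0.0947). Mgst1 is also expressed in granulocyte progenitors, whose marker sums, given above, were higher on each irradiated array than at 0 Gy, opposite to Mgst1. The part of such cells was not tested.

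Srxn1 and Mgst1 were thus at least 1.5-fold lower at all 3 doses, 2 of 32 genes or 6.25%, against 1.51% of all named genes and 2.02% of those at or above the median level. After quantile normalization Srxn1 alone was lower at all 3, because Mgst1 had -0.58 at 0.5 Gy. None of the 32 was higher at all 3, against 0.977% of all genes and 1.49% of those at or above the median level. By a wider description, the 0 Gy value stood apart from the irradiated arrays by more than their own range in 4 of 32 genes, Gsr, Srxn1, Cat and Mgst1. That is 12.5%, against 12.7% of all genes and 14.3% of those at or above the median level, so it was about as frequent outside the set.

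Gstm1, a cytosolic mu-class transferase, had the widest range of the set. It had 5.97, 5.50, 6.87 and 4.37 at 0, 0.02, 0.1 and 0.5 Gy. It was 1.87-fold higher at 0.1 Gy and 3.03-fold lower at 0.5 Gy than at 0 Gy, the only one of the 32 beyond 1.5-fold in both directions, where 1.02% of all genes and 1.62% of those at or above the median level were. The value at 0.5 Gy minus that at 0.1 Gy was -2.51 on the log2 scale.

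Mu-class genes neighbour each other on mouse chromosome 3 in the RefSeq annotation and are close in sequence, so probe sets of one may take up RNA of another. Gstm5 of the same cluster had 9.28, 9.12, 9.13 and 9.24, within 0.16 over the 4 arrays. Gstm2, outside the list, had 9.05, 8.72, 7.14 and 7.94, with 0.1 Gy lowest where Gstm1 was highest. Gsta4, an alpha-class transferase that clears lipid peroxidation products, had 6.00, 6.36, 5.40 and 6.09, 1.52-fold lower at 0.1 Gy than at 0 Gy and 1.95-fold higher at 0.02 Gy than at 0.1 Gy.

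Ferritin stores iron so that it does not feed radical reactions. Fth1, the heavy chain, had 11.30, 11.36, 11.26 and 11.36, a range of 0.10. Ftl1, the light chain, had 2.04, 2.01, 2.05 and 2.03, near the lowest values on the arrays. Ftl1 is abundant in most cells and has many processed copies in the mouse genome, so its probe set is read here as giving no usable level.

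**Figure D3:**
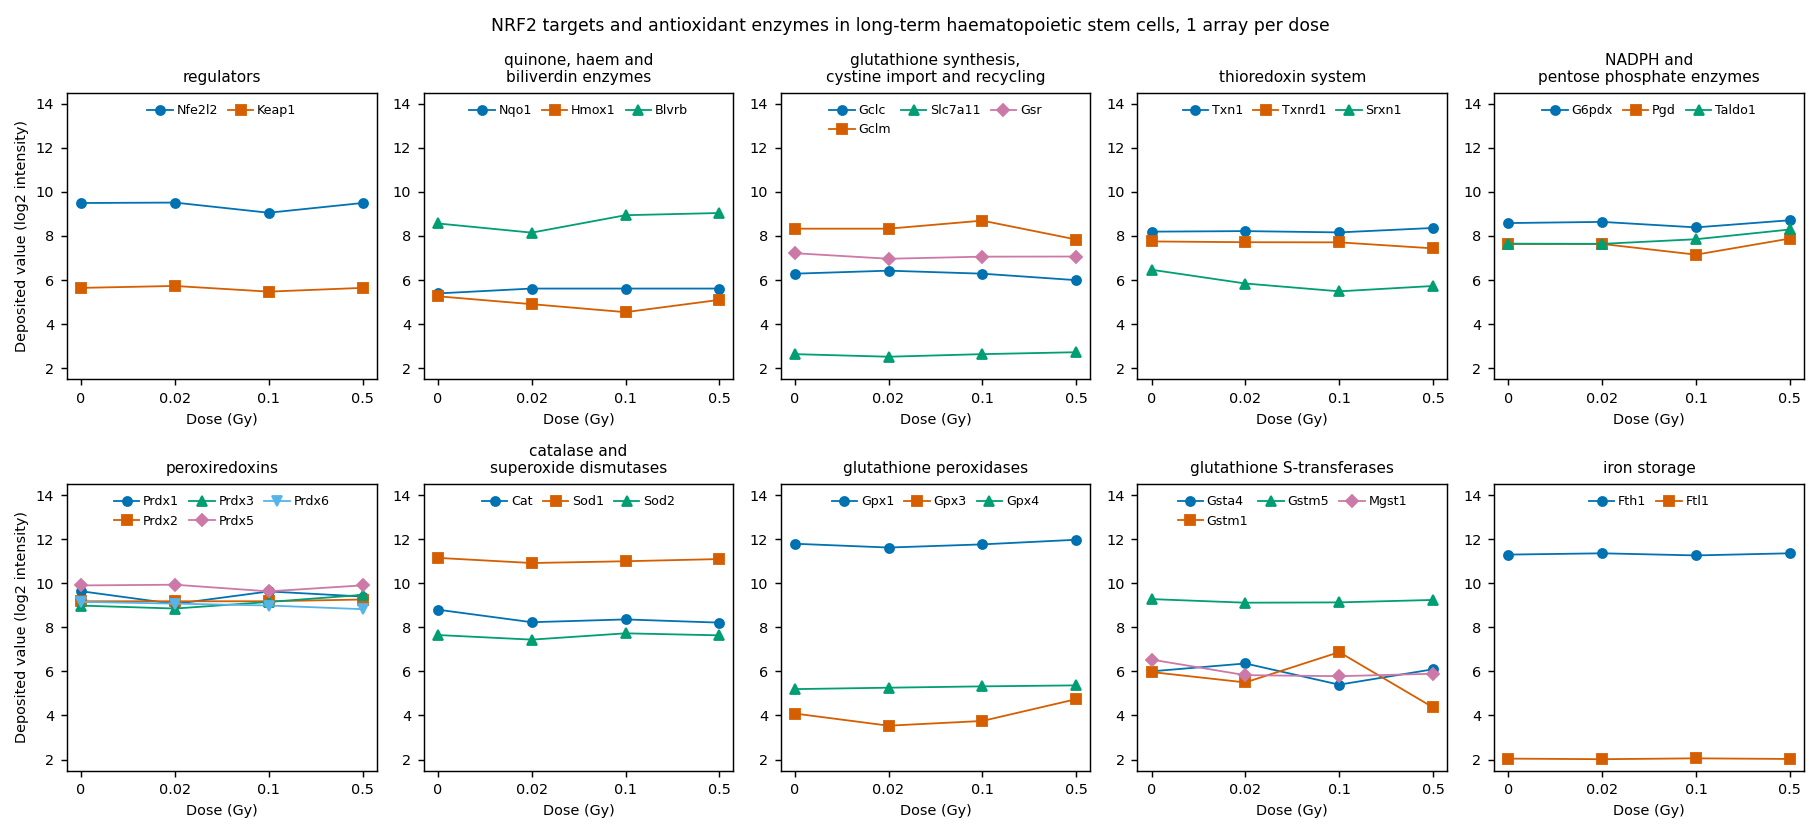
Deposited log2 intensity of the 32 genes at 0, 0.02, 0.1 and 0.5 Gy, 1 array per dose, grouped by role; points are single arrays and lines only join them. Srxn1 and Mgst1 are below their 0 Gy value at every dose, Gstm1 has 6.87 at 0.1 Gy and 4.37 at 0.5 Gy, and Slc7a11 and Ftl1 stay below 3; heights of different genes are not comparable.

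Genes of the same pathway outside the list were then counted. Of 96 listed, 94 were measured. In order of dose, 8, 3 and 6 of them were 1.5-fold or more above 0 Gy and 7, 8 and 7 below, with a median difference of 0.00 at each dose. Of all named genes 4.58%, 4.01% and 4.36% were above and 4.29%, 4.97% and 5.4% below. Of genes at or above the median level, as 70 of the 94 are, 6.39%, 5.5% and 5.92% were above and 6.22%, 7.5% and 8.27% below. In all, 26 of the 94 reached 1.5-fold at some dose, a share of 27.7% that is near the 26.2% of genes at or above the median level, against 18.3% of all genes. At all 3 doses 2 of the 94, or 2.13%, were lower and 1, or 1.06%, was higher, against 1.51% and 0.977% of all genes and 2.02% and 1.49% of those at or above the median level. None of the named genes below passed an adjusted p of 0.05 in limma.

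Among 15 partners and regulators of NRF2, 2, or 13.3%, were beyond 1.5-fold at some dose, against 18.3% of all genes and 26.2% of those at or above the median level. Mafg, a small MAF partner of NRF2, had 7.18, 6.07, 6.64 and 6.64 at 0, 0.02, 0.1 and 0.5 Gy, below 0 Gy on each irradiated array. Bach1, a repressor that competes with NRF2 for its sites, had 6.41, 6.87, 6.68 and 6.70, above 0 Gy on each, within 1.5-fold. Trim21, a ubiquitin ligase, had log2 differences of 0.15, 0.40 and -0.91.

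Among 36 measured further targets and detoxifying enzymes, 13, or 36.1%, were beyond 1.5-fold at some dose, against 18.3% of all genes and 26.2% of those at or above the median level. Gstm6, another mu-class gene, was lower at all 3 doses, with differences of -1.78, -1.06 and -2.19 at 0.02, 0.1 and 0.5 Gy, though its mean lay below the median level. Gstm2 had -0.33, -1.92 and -1.11, and Nqo2, a quinone reductase related to Nqo1, had -0.82, -0.61 and -0.14. Cbr3, a carbonyl reductase, was at 1.42, -0.45 and -0.16. Its log2 intensities were 4.08, 5.49, 3.63 and 3.92, so only the 0.02 Gy value lay well above the median level, 4.07. Gstt2 had differences of 0.77, -0.13 and 0.87, and Mgst2 0.20, -0.77 and 0.62. The glutathione transferases named here, chosen by the size of their differences, had no common direction.

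Among 34 other redox enzymes, 9, or 26.5%, were beyond 1.5-fold at some dose, against the same 18.3% and 26.2%. Glrx, glutaredoxin, which uses glutathione to reduce protein disulfides, had 7.55, 6.48, 6.72 and 6.84 at 0, 0.02, 0.1 and 0.5 Gy. Its differences were -1.07, -0.84 and -0.71. Ggt5, a gamma-glutamyl transferase, was higher at all 3, at 0.63, 0.68 and 1.40, with a mean below the median level.

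Gpx7 and Gpx8, peroxidases of the endoplasmic reticulum, differed in direction. Gpx7 had differences of 0.42, 0.42 and 1.01, and Gpx8 -0.20, -0.77 and -1.33. Sesn3, a sestrin, had 0.65, -0.11 and 0.14. Of 9 NADPH oxidase genes, which make superoxide, Cyba had -0.60, -0.24 and -0.30, Ncf4 0.33, 0.80 and 0.51, and Ncf1 -0.34, 0.02 and -0.18.

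**Figure D4:**
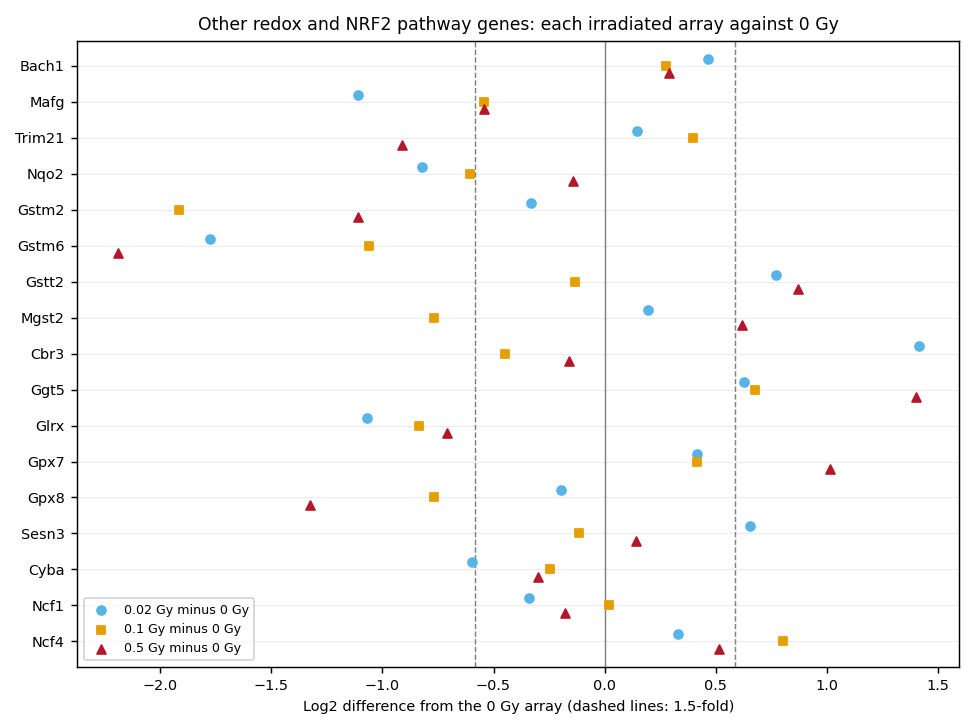
Log2 difference of each irradiated array from 0 Gy for 17 redox and NRF2 pathway genes outside the list; circles are 0.02 Gy, squares 0.1 Gy, triangles 0.5 Gy, and dashed lines mark 1.5-fold. Glrx and Gstm6 are beyond the lower line and Ggt5 beyond the upper line at every dose.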

How the data were processed

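Expression was read from 1 table with a column for each of 4 arrays, matched to doses through the labels. The deposited values are on a log scale, taken as log2 intensities from their range of 1.22 to 13.0. The base is inferred. Per the labels' protocols, biotinylated cDNA was hybridised to Affymetrix whole-transcript arrays, and per the submitters' processing notes Partek was used. How background and normalization were handled, and on which build probes were annotated, is not given in the sources used here. Rows were named by Entrez number through RefSeq symbols of GRCm38.p6, or the platform table, 23740 of 25206 in all. Values were used as deposited, with no filter on low values.

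Differences between single arrays were counted at 1.5-fold. All named genes were fitted in R 4.3.3 with limma 3.58.1 (lmFit, then eBayes, with adjustment by Benjamini-Hochberg at 0.05) with 2 residual degrees of freedom and the fit was tested on simulated data. All 32 genes are named; other pathway genes are those at 1.5-fold on one side at all 3 doses and, per list and dose, the 2 largest differences among genes at or above the median level. A gene that this rule names is not reported here. Promoters are shown for members with the core at 1.5-fold in one direction at 2 or more doses, and for Gclm and Prdx1, picked among the others with the core after their values were seen. Gene lists and members were chosen with earlier results of these data known. Alternatives tried were median centring, quantile normalization, cyclic loess, a filter on the mean, a 2-fold threshold, another control, an intensity trend, dose rank and leaving out arrays. Arrays have no read depth.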

Additional observations from a re-analysis of the deposited data

How the results depend on the processing

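The number of genes at 1.5-fold or more, 2, 5 and 6 of 32 at 0.02, 0.1 and 0.5 Gy, was within 1.5 times of itself under quantile normalization, cyclic loess and a filter on the mean, and under median centring except at 0.02 Gy, where it was 5. At a 2-fold threshold the counts were 0, 0 and 1. With each array set against the mean of the remaining 3 they were 2, 2 and 3. Genes ordered with dose numbered 5 under quantile normalization and 5 under cyclic loess, against 3 as deposited. Genes lower at 1.5-fold at all 3 doses numbered 1 under quantile normalization, against 2. That count, and cyclic loess for ordering and for sides of 0 Gy, were added after the data were seen. In both limma fits 0 of the 32 genes passed under each alternative run, including each array left out that the fit allows. Of 441 values for 49 named genes under 3 scalings, 12 crossed 1.5-fold and the largest move was 0.14. With moves that small no value at 1.5-fold could change sign. Some values near 0 did change sign, such as Prdx1 at 0.1 Gy, from -0.01 as deposited to 0.06 under quantile normalization. No paired analysis was possible because each dose has 1 array. Low signal limits Ftl1, Slc7a11, Gpx3, Gstm6 and Ggt5, and Cbr3 outside 0.02 Gy.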
